A study of Mus musculus with 6 samples.

Results

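The blood lineage transcription factors *Gata1*, *Klf1*, *Nfe2*, *Gfi1b*, *Tal1*, *Lmo2*, *Runx1*, *Myb*, *Ikzf1* and *Spi1* were followed in the RNA of mouse hearts at embryonic day (E) 9.5. These 10 genes were chosen by name, from what they do in blood cells, with earlier results of these data known. Each matched 1 of the 54532 rows of the gene count table. All 10 passed the filter on low counts, which left 19372 genes for testing. There were 3 *Smyd1-KO* and 3 WT libraries, each labelled as a heart and taken here as the heart of 1 embryo. *Smyd1* encodes a histone methyltransferase found in heart and skeletal muscle, and the comparison asks which transcripts depend on it shortly before *Smyd1* null embryos die. The *Smyd1-KO* embryos were homozygous for a conventional germline null allele, carried by *Smyd1*+/- mice, so every cell type of the embryo lacked a functional copy and no Cre or other transgene was involved. Embryos of both sexes were used, no treatment was given, and the litter of each heart was not given in the sources used here. The *P* values therefore measure the spread between 3 libraries a genotype, each taken as 1 embryo.

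In the mid-gestation embryo most circulating blood is primitive erythroid cells that arise in the yolk sac and reach the heart with the first circulation, so a dissected heart contains blood as well as cardiac tissue. GATA1 binds DNA at GATA sequences and works with KLF1 and NFE2 to switch on globin, heme and red cell membrane genes. GFI1B is a transcriptional repressor that takes part in erythroid and megakaryocytic development. TAL1 and LMO2 sit together in a DNA-bound complex with GATA factors and are used both in blood and in endothelium, RUNX1 and MYB act in blood stem and progenitor cells, and IKZF1 and SPI1 are best known from lymphoid and myeloid cells.

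Total counts ran from 48627825 to 64217529 per heart, so 1 count was worth about the same everywhere, and 3 counts, the limit that a count of 0 allows, stood at 0.0451 to 0.0617 CPM (counts per 1000000 counts of the heart, with TMM factors). Such limits cover counting error only. *Smyd1* itself had 101, 222 and 206 CPM in *Smyd1-KO* hearts 1 to 3 and 414, 379 and 270 CPM in WT hearts 1 to 3. Every *Smyd1-KO* heart was below every WT heart, with transcripts still counted in all of them (log2 fold change -1.01, SE 0.300, edgeR adjusted *P*=0.0973). The exons that the null allele lacks are not given in the sources used here. Cardiomyocyte markers were abundant in all hearts, and their summed level was 10341.5 CPM in *Smyd1-KO* heart 1 and 13597.5 CPM in WT heart 3 against 21181 to 23080 CPM in the other hearts. *Smyd1-KO* heart 1 and WT heart 1 had Y-linked transcripts above *Xist*, at a sum of 40.9 and 157 CPM, and the other 4 hearts had *Xist* above the Y-linked genes. *Smyd1-KO* heart 1 also stood apart in the blood genes below, so results are given with and without it.

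Among the 10 factors, 3 were lower in *Smyd1-KO* hearts (*Gata1*, *Nfe2* and *Ikzf1*) and none was higher at an adjusted *P* under 0.05 and a log2 fold change of at least 0.5 in edgeR's quasi-likelihood test, where 1.42% of all tested genes were called lower and 2.86% higher. At an unadjusted *P* under 0.05, 8 of the 10 were lower, against 11.9% of all tested genes, and 0 were higher (13.1%). The fitted log2 fold change was negative for 9 of the 10 (50.2% of all tested genes), with *Runx1* as the exception, and the median over the 10 was -1.27 against -0.00 over all tested genes. In 7 of the 10, every *Smyd1-KO* heart lay below every WT heart, which held for 15.5% of all tested genes, and in 0 of the 10 was every *Smyd1-KO* heart above every WT heart (15.9%). *Runx1*, *Myb* and *Spi1* were the members whose genotypes overlapped. The count of 3 changed when single hearts were left out. It was 4 without *Smyd1-KO* heart 1 (2.23% of all genes tested in that fit). It was 2 without *Smyd1-KO* heart 2 (51 of 19974 tested genes called lower) and 1 without *Smyd1-KO* heart 3 (70 of 19982). It was 2 without WT heart 1 (139 of 19993), 0 without WT heart 2 (8 of 19842) and 1 without WT heart 3 (41 of 19826). With all hearts, 275 of 19372 tested genes were called lower. DESeq2 with the same thresholds called 6 of the 10 lower (1.88% of all), adding *Klf1*, *Tal1* and *Myb*, and so did edgeR's likelihood ratio test, an alternative added after seeing the data (3.09% of all). In these bulk samples, fewer cells of a type and less RNA per cell cannot be told apart.

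**Figure D1:**
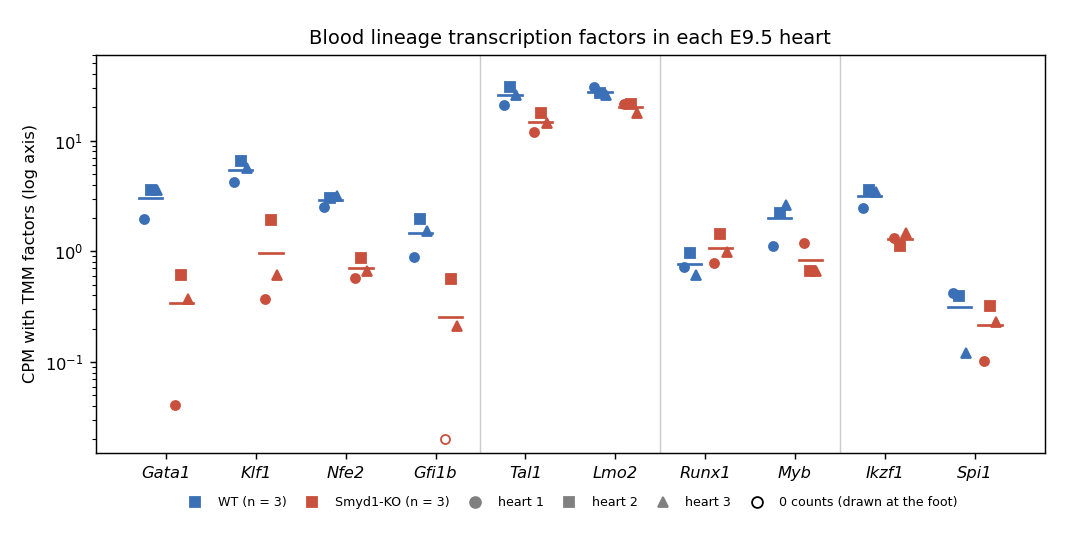
CPM with TMM factors (log axis) of the 10 factors in each WT (blue) and *Smyd1-KO* (red) heart; symbols give the heart number, bars the mean of 3 hearts, and the open symbol a heart with 0 counts. *Gata1*, *Klf1*, *Nfe2*, *Gfi1b*, *Tal1*, *Lmo2* and *Ikzf1* show no overlap between genotypes, while *Runx1*, *Myb* and *Spi1* do.

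*Gata1* (ENSMUSG00000031162; GRCm38 chrX:7959260-7978071, minus strand), the main erythroid GATA factor, had the largest difference of the 10. It was counted 2, 36 and 21 times in *Smyd1-KO* hearts 1 to 3 and 118, 229 and 238 times in WT hearts 1 to 3. These counts correspond to 0.0411, 0.609 and 0.368 CPM against 1.98, 3.61 and 3.57 CPM. The genotypes were far apart, the highest *Smyd1-KO* heart being below the lowest WT heart, and the 2 counts of *Smyd1-KO* heart 1 were under the limit of 3. *Gata1* was 8.79-fold higher in WT hearts, a log2 fold change of -3.14 (SE 0.676, edgeR adjusted *P*=0.0445). Without *Smyd1-KO* heart 1 it was -2.64 and the adjusted *P* was 0.0143. The call was lost without *Smyd1-KO* heart 2 (adjusted *P*=0.0682), *Smyd1-KO* heart 3 (0.105), WT heart 1 (0.0743), WT heart 2 (0.162) or WT heart 3 (0.140).

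*Klf1* (ENSMUSG00000054191; chr8:84901928-84905291, plus strand), which activates the globin and red cell membrane genes, had the second largest difference. Its level was 0.370, 1.91 and 0.613 CPM in *Smyd1-KO* hearts 1 to 3 and 4.25, 6.51 and 5.68 CPM in WT hearts 1 to 3. All *Smyd1-KO* hearts were low, and heart 2 had 5.16 times the level of heart 1. The log2 fold change of -2.49 (SE 0.564) came with an edgeR adjusted *P* of 0.0512, just above the threshold. Without *Smyd1-KO* heart 1 the value was -2.11 with an adjusted *P* of 0.0436, and without *Smyd1-KO* heart 2 it was -3.46 with an adjusted *P* of 0.0151, so *Klf1* was called in both of those fits and in none that left out a different heart.

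*Gfi1b* (ENSMUSG00000026815; chr2:28609450-28621982, minus strand), a transcriptional repressor that takes part in erythroid and megakaryocytic development, had 0, 33 and 12 counts in *Smyd1-KO* hearts 1 to 3 and 53, 124 and 101 counts in WT hearts 1 to 3. The genotypes did not overlap, and the 0 in *Smyd1-KO* heart 1 allows a level of up to 0.0617 CPM. In the other *Smyd1-KO* hearts it stood at 0.558 and 0.210 CPM, against 1.45 ± 0.535 CPM in WT (mean ± SD, n = 3). The log2 fold change of -2.46 had the largest error of the 10 (SE 0.857) and did not pass the test (edgeR adjusted *P*=0.133). Without *Smyd1-KO* heart 1 it was -1.91 with an adjusted *P* of 0.0684.

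*Nfe2* (ENSMUSG00000058794; chr15:103248212-103258403, minus strand), the blood-specific subunit of the NF-E2 factor of red cells and platelets, had 0.576, 0.863 and 0.666 CPM in *Smyd1-KO* hearts 1 to 3 and 2.53, 3.04 and 3.15 CPM in WT hearts 1 to 3. The hearts of each genotype lay close together and the genotypes were well separated. *Nfe2* was 4.13-fold higher in WT hearts, at a log2 fold change of -2.05 (SE 0.234, edgeR adjusted *P*=0.00679), which had the smallest error of the erythroid factors. Leaving out each heart in turn kept the call in 5 of 6 fits, with log2 fold changes of -2.22 to -1.92. The exception was the fit without WT heart 2 (adjusted *P*=0.0522). Without *Smyd1-KO* heart 1 the adjusted *P* was 0.00898.

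The start regions of *Gata1*, *Gfi1b*, *Klf1* and *Ikzf1*, which were called or had the 3 largest differences, are shown because GATA1 and KLF1 bind near many genes of blood cells. The sequences are from RefSeq on GRCm38.p6 and run 5′ to 3′ from 250 bases before the start site to the last base before an annotated exon of the gene. Capitals mark matches on either strand to the GATA letters (TGATAA, or the same word with A as its first base, G as its last base, or both) or to the KLF letters (CCNCNCCC, where N is any base). The first lies at chrX:7967911-7968160 (minus strand), the second at chr2:28621983-28622232 (minus strand), the third at chr8:84901732-84901927 (plus strand) and the last, the first of its start sites, at chr11:11685675-11685924 (plus strand).
Gata1: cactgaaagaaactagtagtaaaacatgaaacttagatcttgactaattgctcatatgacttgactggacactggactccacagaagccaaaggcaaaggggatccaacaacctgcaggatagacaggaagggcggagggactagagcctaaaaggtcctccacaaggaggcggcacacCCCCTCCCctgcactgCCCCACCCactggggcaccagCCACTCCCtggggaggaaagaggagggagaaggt
Gfi1b: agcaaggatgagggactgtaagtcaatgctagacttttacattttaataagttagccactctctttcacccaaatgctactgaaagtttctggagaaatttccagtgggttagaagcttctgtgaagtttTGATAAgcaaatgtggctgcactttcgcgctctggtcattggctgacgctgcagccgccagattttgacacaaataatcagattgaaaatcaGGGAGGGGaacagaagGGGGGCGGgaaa
Klf1: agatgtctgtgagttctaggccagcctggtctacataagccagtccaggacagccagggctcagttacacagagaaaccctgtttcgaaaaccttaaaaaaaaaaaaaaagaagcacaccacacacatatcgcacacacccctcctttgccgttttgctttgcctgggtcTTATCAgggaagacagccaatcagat
Ikzf1: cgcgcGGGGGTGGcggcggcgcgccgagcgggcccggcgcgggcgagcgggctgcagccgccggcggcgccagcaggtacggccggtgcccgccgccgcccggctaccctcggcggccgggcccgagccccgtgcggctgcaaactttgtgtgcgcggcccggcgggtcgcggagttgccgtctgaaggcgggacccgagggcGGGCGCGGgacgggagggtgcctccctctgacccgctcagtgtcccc

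In the 300-base windows of the table (250 bases before and 50 after a start site), *Klf1* held a GATA match beginning 80 bases before its start, *Gfi1b* one beginning 120 bases before and *Tal1* one beginning 205 bases before. *Gata1* had none in this window and 3 KLF matches, beginning 71, 55 and 34 bases before the start. The table matched 7 of the 10 factors with 10 windows (*Lmo2*, *Nfe2* and *Spi1* were not matched). GATA letters were found in 3 of these 7 factors, in 3 of 10 windows, against 29.8% of the 32851 windows of all genes. KLF letters were found in 7 of 10 windows (49.5% of all), E-box letters (CANNTG, the kind TAL1 binds) in 6 of 10 (72.3%), RUNX letters (TGTGGT) in 2 of 10 (16.8%), SPI1 letters (GAGGAA) in 3 of 10 (28.3%) and NFE2 letters (TGANTCA) in 0 of 10 (7.81%). A match is a description of the sequence, with no measure of binding.

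*Tal1* (ENSMUSG00000028717; chr4:115056426-115071755, plus strand), the basic helix-loop-helix factor at the start of blood and a factor of endothelium, had 12.1, 17.7 and 14.4 CPM in *Smyd1-KO* hearts 1 to 3. In WT hearts 1 to 3 it had 21.2, 30.8 and 26.1 CPM. The genotypes did not overlap, but the gap was far smaller than for the erythroid factors, with a log2 fold change of -0.82 (SE 0.187) and an edgeR adjusted *P* of 0.0516 that missed the threshold. It also missed it in each fit that left out a heart (adjusted *P* of 0.0598 to 0.187).

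*Lmo2* (ENSMUSG00000032698; chr2:103957986-103981878, plus strand), the adaptor protein that holds the complex of TAL1 and GATA factors together, had 21.4, 21.7 and 17.7 CPM in *Smyd1-KO* hearts 1 to 3 and 30.8, 26.8 and 25.8 CPM in WT hearts 1 to 3. It had the smallest difference of the 10 and the tightest replicates, and the genotypes did not overlap. The log2 fold change was -0.46 (SE 0.122, edgeR adjusted *P*=0.0740), so it met neither the fold change limit nor the adjusted threshold. *Tal1* and *Lmo2* made up most of the summed level of the 10 factors, which was 37.3 to 46.8 CPM in *Smyd1-KO* hearts and 66.4 to 79.9 CPM in WT hearts. Endothelial markers were not lower as a group in the same hearts: 14 of 20 had a positive log2 fold change, with a median of 0.33.

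*Ikzf1* (ENSMUSG00000018654; chr11:11685003-11772926, plus strand), the zinc finger factor Ikaros, had 1.32, 1.12 and 1.45 CPM in *Smyd1-KO* hearts 1 to 3 and 2.48, 3.59 and 3.44 CPM in WT hearts 1 to 3. The *Smyd1-KO* hearts formed a narrow band below the WT hearts, and heart 1 was not the lowest of them. WT hearts had 2.45-fold more, at a log2 fold change of -1.29 (SE 0.227, edgeR adjusted *P*=0.0256). The call held without *Smyd1-KO* heart 1 (adjusted *P*=0.0341) and without WT heart 1 (0.0365). It was lost without *Smyd1-KO* heart 2 (0.0941), *Smyd1-KO* heart 3 (0.0598), WT heart 2 (0.122) or WT heart 3 (0.10).

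*Spi1* (ENSMUSG00000002111; chr2:91082390-91115756, plus strand), which encodes the myeloid factor PU.1, was scarcely counted. It had 5, 19 and 13 counts in *Smyd1-KO* hearts 1 to 3 and 25, 25 and 8 counts in WT hearts 1 to 3. The genotypes overlapped, with the lowest WT heart at 0.120 CPM and the highest *Smyd1-KO* heart at 0.321 CPM, and no difference was detectable at this depth (log2 fold change -0.49, SE 0.583, edgeR adjusted *P*=0.645).

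*Myb* (ENSMUSG00000019982; chr10:21124935-21160984, minus strand), a factor of proliferating progenitors that primitive erythroid cells need little, had 1.19, 0.660 and 0.666 CPM in *Smyd1-KO* hearts 1 to 3 and 1.12, 2.22 and 2.61 CPM in WT hearts 1 to 3. *Smyd1-KO* heart 1 was above WT heart 1, so the genotypes overlapped. Both of these were the hearts with Y-linked transcripts. The log2 fold change was -1.25 (SE 0.391, edgeR adjusted *P*=0.108). Over the 4 hearts with *Xist* it was -1.85, with an adjusted *P* of 0.0174, a comparison chosen after seeing the data.

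*Runx1* (ENSMUSG00000022952; chr16:92601466-92826149, minus strand), the factor with which endothelial cells turn into blood stem cells, was the only one of the 10 with a positive value. It had 0.782, 1.44 and 0.981 CPM in *Smyd1-KO* hearts 1 to 3 and 0.722, 0.961 and 0.616 CPM in WT hearts 1 to 3. The genotypes overlapped and the log2 fold change of 0.48 (SE 0.312) did not pass the test (edgeR adjusted *P*=0.379). In fits without 1 heart it stayed between 0.21 and 0.68.

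Antisense genes share exonic bases with *Myb* (559 bases) and *Runx1* (106 bases), and the strand setting of the counting is not given in the sources used here, but those genes had at most 5 and 4 counts in any heart. No other member shared exonic bases with another gene. For single genes an exact two-sided permutation test of 3 against 3 hearts cannot go below *P*=0.1, which the 7 factors without overlap reached, while *Runx1* and *Myb* gave 0.2 and *Spi1* 0.5.

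Per kilobase of exon, the 10 factors spanned a wide range in WT hearts. *Lmo2* was highest (12.8 ± 1.20 CPM per kb, mean ± SD, n = 3), followed by *Tal1* (5.95 ± 1.10), *Klf1* (3.58 ± 0.747) and *Gata1* (1.25 ± 0.381). Next came *Nfe2* (0.974 ± 0.110), *Gfi1b* (0.794 ± 0.292), *Ikzf1* (0.549 ± 0.104), *Myb* (0.222 ± 0.0863), *Spi1* (0.115 ± 0.0616) and *Runx1* (0.0637 ± 0.0147). The single hearts of *Gata1* and *Nfe2*, of *Nfe2* and *Gfi1b*, of *Gfi1b* and *Ikzf1*, of *Myb* and *Spi1*, and of *Spi1* and *Runx1* overlapped, so these neighbours were not set apart by level. In *Smyd1-KO* hearts the order began with *Lmo2* (9.35 ± 1.02), *Tal1* (3.36 ± 0.641) and *Klf1* (0.631 ± 0.542) again. *Gata1* moved from 4th to 7th place, at 0.139 ± 0.117 CPM per kb, beside *Gfi1b* at 0.140 ± 0.154, with *Nfe2* (0.235 ± 0.0491) and *Ikzf1* (0.224 ± 0.0294) above them.

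The spread among *Smyd1-KO* hearts differed between the factors. *Gata1* differed 14.8-fold between the lowest and the highest *Smyd1-KO* heart, a ratio of 36 to 2 counts whose exact 95% counting interval was 3.81 to 127, and 1.82-fold among WT hearts. *Klf1* varied 5.16-fold against 1.53-fold. *Nfe2* (1.5-fold against 1.24-fold), *Tal1* (1.46 against 1.45), *Lmo2* (1.22 against 1.19) and *Ikzf1* (1.30 against 1.45) varied about as little in both genotypes. In *Gata1*, *Klf1*, *Gfi1b*, *Nfe2*, *Tal1*, *Runx1* and *Spi1*, heart 1 was the lowest and heart 2 the highest of the *Smyd1-KO* hearts. *Ikzf1*, *Myb* and *Lmo2* did not have that order. Relative to the WT mean on the log2 scale, with a prior count of 2 added, *Gata1* stood at -5.31, -2.21 and -2.89 and *Ikzf1* at -1.23, -1.46 and -1.09 in *Smyd1-KO* hearts 1 to 3.

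**Figure D2:**
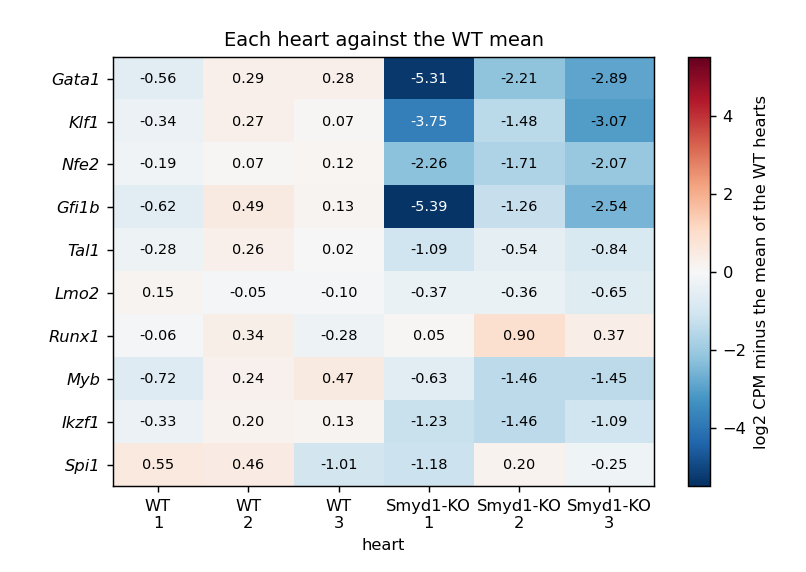
Log2 CPM of each factor in each heart minus the mean of the WT hearts, with the value printed in each cell; columns are hearts and the colour scale runs from blue (below the WT mean) to red (above). *Smyd1-KO* heart 1 shows the lowest *Gata1* (-5.31) and *Gfi1b* (-5.39, a heart with 0 counts, set by the prior count).

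Erythroid markers were lower in the same hearts. Of 28 tested markers, 8 were called lower and none higher, where 1.42% and 2.86% of all tested genes were called. Among the 8 were *Alas2*, the first enzyme of heme synthesis in red cells, the membrane proteins *Rhd*, *Ermap* and *Kel*, the glycolytic enzymes *Bpgm* and *Pklr*, and *Trim10*. Without *Smyd1-KO* heart 1, 17 were called lower (2.23% of all genes tested in that fit) and 2 higher. The count called lower was 4 without *Smyd1-KO* heart 2, 2 without *Smyd1-KO* heart 3, 5 without WT heart 1 and 1 without either WT heart 2 or WT heart 3. Over all tested genes, 51, 70, 139, 8 and 41 were called lower in those fits, in that order, against 275 with all hearts. The median log2 fold change over the markers was -1.97 and 25 of 28 were negative. Against the WT mean, the median marker was at -3.64, -1.28 and -1.88 in *Smyd1-KO* hearts 1 to 3, so heart 1 was again the lowest and heart 2 the highest. The summed marker level was 524 to 1005 CPM in *Smyd1-KO* hearts and 1362 to 1701 CPM in WT hearts. Their part in the levels of the 10 factors was not tested.

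The level of each factor was therefore also set against the median erythroid marker of its own heart, as a log2 difference that was then compared between genotypes. *Gata1* remained lower on this scale, at -1.67, -0.93 and -1.01 in *Smyd1-KO* hearts 1 to 3 and -0.32, 0.14 and 0.20 in WT hearts 1 to 3. The difference of -1.21 left no overlap (exact permutation *P*=0.1, the smallest possible) and ran from -1.37 to -0.97 when hearts were left out. *Klf1* differed by -0.50, with *Smyd1-KO* hearts at -0.11, -0.20 and -1.19 and the lowest WT heart at -0.10. For *Nfe2* (0.25) and *Gfi1b* (-0.80) the genotypes overlapped.

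The remaining factors had positive differences against the erythroid markers. *Tal1* differed by 1.44, *Lmo2* by 1.81, *Runx1* by 2.70 and *Spi1* by 1.85 without overlap (exact permutation *P*=0.1 for each). *Myb* (1.09) and *Ikzf1* (1.01) overlapped. With the 7 globin genes taken out of the marker list, *Gata1* differed by -1.67 and *Nfe2* changed sign to -0.21, with its *Smyd1-KO* hearts at -0.24, -0.23 and -0.19 below all WT hearts. *Klf1* (-0.96) then overlapped, *Ikzf1* (0.54) no longer did, and *Tal1* (0.98), *Lmo2* (1.34), *Runx1* (2.24) and *Spi1* (1.39) kept their direction and separation.

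**Figure D3:**
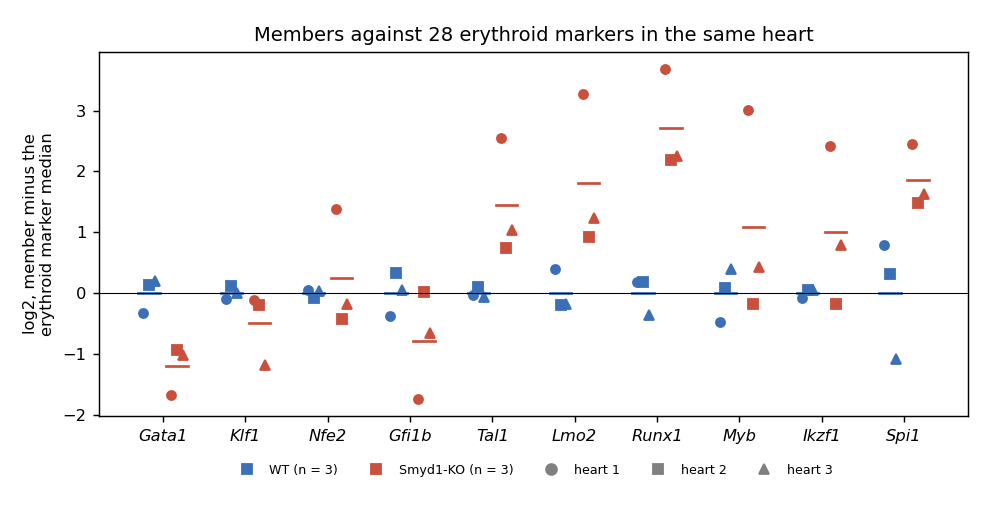
Log2 level of each factor minus the median of 28 erythroid markers in the same heart, with each factor centred on its WT hearts; blue symbols are WT and red symbols *Smyd1-KO* hearts, bars are means of 3 hearts. *Gata1* lies below the line in all *Smyd1-KO* hearts (-1.67 to -0.93), whereas *Tal1*, *Lmo2*, *Runx1* and *Spi1* lie above it.

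The pattern of *Gata1* over the 6 hearts was compared with that of 14604 other genes with a mean of at least 1 CPM, by the root mean square difference of log2 CPM centred on its own mean. Among the nearest 5 were *Slc4a1* (0.136), the anion exchanger of the red cell membrane, the embryonic globins *Hbb-bh1* (0.178) and *Hba-x* (0.204), and the membrane protein *Rhag* (0.35). *Slc4a1* had 0.802, 8.81 and 4.85 CPM in *Smyd1-KO* hearts 1 to 3 and 26.4, 53.6 and 50.9 CPM in WT hearts 1 to 3. It ranked the *Smyd1-KO* hearts as *Gata1* did, a likeness by which it was picked. The globins belong to a multigene family, and how reads shared between copies were counted is not given in the sources used here.

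Among the 10 factors, *Gfi1b* was the nearest to *Gata1* (0.377) and *Gata1* the nearest to *Klf1* (0.627). *Tal1* and *Ikzf1* were each other's nearest (0.331), *Ikzf1* was also the nearest to *Nfe2* (0.461) and *Myb* (0.351), and *Tal1* the nearest to *Lmo2* (0.336). *Lmo2* was the nearest to *Runx1* (0.547) and *Runx1* to *Spi1* (0.610), and *Runx1* was the farthest from *Gata1* (2.11). These distances are a description of 6 libraries, which also differed in their erythroid marker levels.

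**Figure D4:**
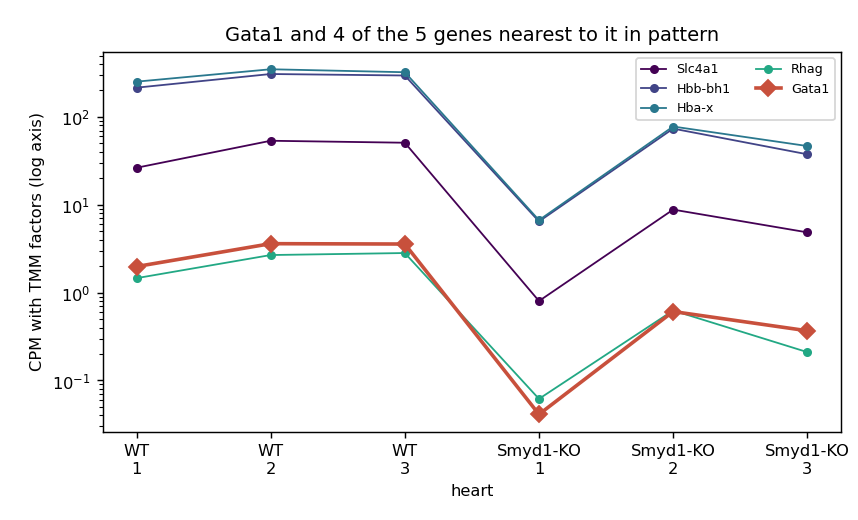
CPM with TMM factors (log axis) of *Gata1* (red diamonds) and 4 of the 5 genes nearest to it in pattern, in WT hearts 1 to 3 and *Smyd1-KO* hearts 1 to 3. All genes shown are lowest in *Smyd1-KO* heart 1 and, among *Smyd1-KO* hearts, highest in heart 2, an order that follows from choosing them by likeness to *Gata1*.

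Of 29 tested partners and cofactors of the 10 factors, 2 were called lower and 3 higher, where 1.42% and 2.86% of all tested genes were called, and the median log2 fold change was -0.02. *Gata2*, the GATA factor of progenitors and endothelium, had 9.63 to 11.5 CPM in *Smyd1-KO* hearts and 21.9 to 31.2 CPM in WT hearts (log2 fold change -1.29, SE 0.157, edgeR adjusted *P*=0.00857). It kept its call in 5 of 6 fits that left out a heart and lost it without WT heart 2. *Etv2*, which starts the blood and endothelial lineages, was lower (-1.08, adjusted *P*=0.0368) but was called in none of the 6. The cofactors that GATA1 and TAL1 bind, *Zfpm1* (FOG1, -0.16, adjusted *P*=0.571) and *Ldb1* (-0.02, adjusted *P*=0.932), were not called, and *Ldb1* stood at 210 ± 16.2 CPM against 212 ± 10.1 CPM in WT (mean ± SD, n = 3).

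The partners called higher were *Maff* (1.40, adjusted *P*=0.0191), a small MAF protein that can pair with NFE2, *Irf8* (1.19, adjusted *P*=0.0413), a myeloid factor that works with PU.1, and *Foxo3* (1.16, adjusted *P*=0.00122). *Foxo3* kept its call in all 6 fits that left out a heart. *Maff* lost it without *Smyd1-KO* heart 2, *Smyd1-KO* heart 3 or WT heart 2, and *Irf8* kept it only without *Smyd1-KO* heart 1. *Cbfb*, the non-DNA-binding partner of RUNX1, was lower in every *Smyd1-KO* heart at 109 ± 3.43 against 148 ± 2.49 CPM (log2 fold change -0.44, adjusted *P*=0.0187), under the fold change limit.

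Of 37 tested paralogs of the 10 factors, 2 were called lower (*Gata2* and *Klf2*) and 2 higher (*Klf15* and *Runx3*), against the same 1.42% and 2.86% of all tested genes, and the median log2 fold change was 0.05. The cardiac GATA factors *Gata4* (-0.14, adjusted *P*=0.746) and *Gata6* (0.16, adjusted *P*=0.664) were not called, nor was *Gata5* (-0.58, adjusted *P*=0.0866), while *Gata1* was the lowest of the family at -3.14. *Klf2*, an endothelial factor that responds to blood flow and is also used in primitive erythroid cells, had 134, 262 and 322 counts in *Smyd1-KO* hearts 1 to 3 and 914, 1005 and 848 counts in WT hearts 1 to 3 (-1.77, adjusted *P*=0.0158). *Klf2* lost the call without *Smyd1-KO* heart 2, WT heart 1, WT heart 2 or WT heart 3.

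*Runx3* moved opposite to most of the 10 factors, with 100, 167 and 182 counts in *Smyd1-KO* hearts 1 to 3 and 26, 30 and 12 counts in WT hearts 1 to 3. Its log2 fold change was 2.89 (SE 0.387, edgeR adjusted *P*=0.0117), beside 0.48 for *Runx1* and -0.22 for *Runx2*. The call was lost without WT heart 2. *Klf15* was higher by 0.84 (adjusted *P*=0.0347) and was not called without *Smyd1-KO* heart 2, *Smyd1-KO* heart 3, WT heart 2 or WT heart 3. *Tal2*, the near relative of *Tal1*, had 18, 123 and 11 counts in *Smyd1-KO* hearts 1 to 3 and 216, 109 and 236 in WT hearts 1 to 3, so its genotypes overlapped (-1.74, adjusted *P*=0.228). *Lyl1*, the other relative, differed by -0.23 (adjusted *P*=0.570).

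**Figure D5:**
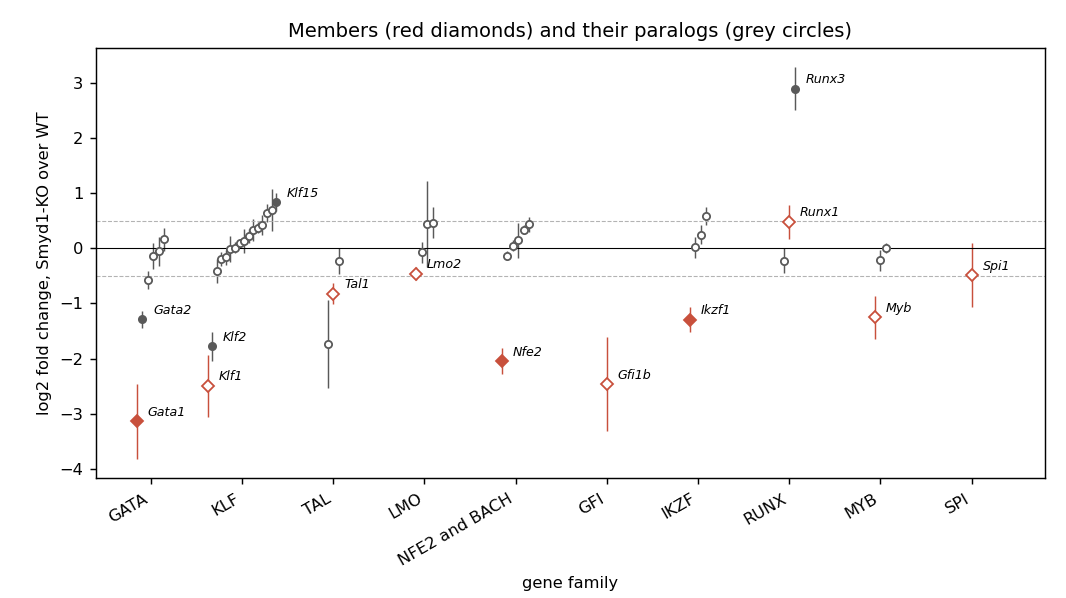
Log2 fold change (*Smyd1-KO* over WT, error bars ± 1 SE of the edgeR fit, n = 3 hearts a genotype) of each factor (red diamonds) and its tested paralogs (grey circles), by gene family; filled symbols passed the test and the fold change limit (dashed lines at 0.5 in either direction). The factor is the lowest of its family for GATA, KLF, LMO, NFE2 and BACH, IKZF and MYB, whereas *Tal2* is below *Tal1* and *Runx3* above *Runx1*.

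Markers of other cell types that could carry these factors were mixed. Of 6 tested megakaryocyte markers, *Itgb3* was called lower (-1.18, adjusted *P*=0.0256), where 1.42% of all tested genes were called lower. *Itgb3*, an integrin that cardiac cells express too, lost the call without *Smyd1-KO* heart 2, *Smyd1-KO* heart 3, WT heart 1 or WT heart 2. The defining platelet genes were near 0, *Pf4* having a mean of 0.0914 CPM over the *Smyd1-KO* and 0.117 CPM over the WT hearts. Of 10 tested macrophage and myeloid markers, 0 were called in edgeR (2 at an unadjusted *P* under 0.05 in each direction, and 2 called higher in DESeq2), the smallest *P* values being those of *Mrc1* (0.73), *Prtn3* (0.74) and *Cd68* (-0.62). *Ptprc*, the common marker of white cells, had 0 to 7 counts per heart. Summed over the list, myeloid transcripts ran from 16.4 to 17.8 CPM over *Smyd1-KO* hearts and from 14.6 to 18.2 CPM over WT hearts.

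Of 9 tested progenitor markers, 0 were called in edgeR (2 at an unadjusted *P* under 0.05 in each direction, and 2 called higher in DESeq2), the smallest *P* values being those of *Kit* (0.64), *Cd93* (0.59) and *Mecom* (-0.37). Of 20 endothelial and endocardial markers, *Etv2* was called lower and *Flt1* (1.15), *Cldn5* (0.996), *Robo4* (1.64), *Sox7* (0.78) and *Sox17* (1.24) were called higher. Of all tested genes, 1.42% were called lower and 2.86% higher. The 5 called higher became 7 without *Smyd1-KO* heart 1, 1 without *Smyd1-KO* heart 2 and 3 without *Smyd1-KO* heart 3. They became 3 without WT heart 1 and 1 without either WT heart 2 or WT heart 3. Over all tested genes, 555 were called higher with all hearts. Leaving out *Smyd1-KO* hearts 1 to 3 in turn gave 809, 197 and 274, and leaving out WT hearts 1 to 3 gave 362, 89 and 130. Of 15 cardiomyocyte markers, 0 were called in edgeR (1 at an unadjusted *P* under 0.05 in each direction, and 1 called higher in DESeq2), with the smallest *P* values in *Nppa* (1.44), *Myh6* (-0.71) and *Myh7* (0.62). Yolk sac endoderm and liver markers, 0 of 7 called in edgeR (1 higher at an unadjusted *P* under 0.05, and 1 called higher in DESeq2; smallest *P* values in *Rbp4* at 2.38, *Amn* at -0.65 and *Cubn* at -0.41), varied from heart to heart, their sum running from 5.31 to 77.6 CPM over *Smyd1-KO* hearts and from 5.74 to 39.4 CPM over WT hearts. The part of these cell types in the levels of the 10 factors was not tested.

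*Gata1* is X-linked, so the sex of the embryos was entered as a term in the edgeR model, an alternative added after seeing the data. *Gata1* was then at -3.38 with an adjusted *P* of 0.0327, *Nfe2* at -2.05 with 0.0125 and *Ikzf1* at -1.27 with 0.0420, and *Klf1* (0.0486) and *Tal1* (0.0351) were called as well, 5 of the 10 against 1.15% of all tested genes. Over the hearts with *Xist* alone, 2 a genotype, *Gata1* was at -2.85 (adjusted *P*=0.0114), *Nfe2* at -2.0 (0.0150) and *Ikzf1* at -1.43 (0.0269). In that comparison 6 of the 10 factors were called lower, against 2.68% of tested genes. The hearts with Y-linked transcripts were *Smyd1-KO* heart 1 and WT heart 1, and *Smyd1-KO* heart 1 also had the lowest erythroid markers. Embryo sex and other differences of these hearts therefore cannot be told apart in either comparison.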

How the data were processed

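Libraries for RNA-seq came from single hearts of E9.5 mouse embryos, 3 *Smyd1-KO* and 3 WT. Genotype and heart number came from the sample labels, and 0 columns belonged to other samples. The deposited counts are whole reads per gene, which the authors made from oligo-dT-selected, paired-end libraries aligned to mm10 with STAR, without normalization. Neither the sample titles nor the paper's account of RNA-seq states whether hearts were pooled. The counting tool, annotation release, strand setting and molecular identifiers are not given in the sources used here. A second table of normalized values was not used here.

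The counts were tested in R 4.3.3 with edgeR 4.0.16 (filterByExpr, TMM factors, quasi-likelihood test, Benjamini-Hochberg adjustment over 19372 genes), without a block. Every adjusted *P* is from edgeR unless DESeq2 1.42.0 is named. A call needed an adjusted *P* below 0.05 together with a log2 fold change of 0.5 or more in either direction. CPM per heart carry TMM factors, and log2 levels per heart a prior count of 2. Total counts were 48627825 to 64217529 per heart. Single values were compared by exact two-sided permutation tests (scipy 1.17.1), and plots were drawn with matplotlib 3.10.9. Positions and exonic lengths came from GENCODE for GRCm38, and start regions from RefSeq for GRCm38.p6.

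The 10 factors and all gene lists were chosen with earlier results of these data known. All 10 are named in every heart; of each list, the called genes, or those with the smallest *P*, are named, and a few others (*Zfpm1*, *Ldb1*, *Cbfb*, *Tal2*, *Lyl1*, *Runx2*, *Gata4* to *Gata6*, *Pf4*, *Ptprc*) were singled out after their values were seen. 1 of 30 erythroid markers was not matched in the table, and 1 result is not reported here. Alternatives were other normalizations, filters, tools, a block by heart number, a term for embryo sex, and leaving out each heart.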

Additional observations from a re-analysis of the deposited data

How the results depend on the processing

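Of all 19372 genes, 830 were called, against 1751 with DESeq2, 1549 over the hearts with *Xist* alone, 1542 with the likelihood ratio test and 97 to 1256 with 1 heart left out. Of the 10 factors, 3 were called, against 6 with DESeq2, with the likelihood ratio test and over the hearts with *Xist* alone, 5 without a filter on low counts and with the sex term, and 0 to 4 with 1 heart left out. The filter of at least 10 counts in every heart removed *Gata1*, *Gfi1b* and *Spi1* and gave 4. Whether heart numbers pair the embryos is not given, and 3 hearts a genotype cannot settle it. Deviations of same-numbered hearts correlated at -0.22, -0.05 and -0.18, and those of differently numbered hearts at -0.16 to 0.29. With the replicate number as a block, 59 genes and 0 of the 10 factors were called (7 at an unadjusted *P* under 0.05), and the cause was not tested. The log2 fold change of *Spi1* reversed to 0.12 over the hearts with *Xist* alone. No other factor changed sign in any alternative, and RLE or upper-quartile factors, leaving out globin and mitochondrial genes, or no fold change limit gave the same 3 factors. Of the other recomputed values (single factors and gene lists), 474 kept their call or moved by less than the spread between hearts, 73 moved further, 13 lost a call and 19 gained one. Counts of 0 to 36 in *Smyd1-KO* hearts limit the precision of *Gata1*, *Gfi1b* and *Spi1*.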
